A study of Mus musculus with 18 samples.

Results

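The 10 core genes of the circadian clock and its output were described in the livers of wild-type (WT) mice and of mice lacking Gcn2 or Atf4. They were chosen by name: the activators Arntl, Clock and Npas2, the repressors Per1, Per2, Per3, Cry1 and Cry2, and the output transcription factors Dbp and Tef, 10 of the 37303 genes in the deposited table. Liver RNA was sequenced from 18 mice, with 3 in each of 6 groups. Mice of all 3 genotypes received 8 daily intraperitoneal injections of asparaginase (ASNase), an enzyme that depletes blood asparagine and glutamine, at 3 IU per gram body weight, or of phosphate buffered saline (PBS). All mice were on the C57BL/6J background, and both deletions were homozygous and present in every tissue, so an effect on the liver clock cannot be told apart from one on the animal as a whole. The labels place each injection at about 8 AM and collection 7.5 h after the last one, at ages from 8 to 16 weeks, while the growth protocol gives an upper age of 12 weeks. Of the 3 mice per group, the labels name 1 male in the PBS groups of WT and Gcn2-/- mice and in the Gcn2-/- group given ASNase, and 2 males in each of the other groups. The part that sex plays in the values below was not tested.

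The clock is a transcriptional feedback loop. ARNTL (also called BMAL1) pairs with CLOCK or NPAS2 and activates genes with E-box elements, among them the Per and Cry genes, whose proteins then shut the activators down. A second loop runs through the nuclear receptors NR1D1 and NR1D2, which repress Arntl, and the ROR receptors, which activate it. Dbp and Tef carry the rhythm outward: they encode PAR bZIP factors that bind D-box elements in genes of drug and lipid metabolism. In the liver of mice held in a light-dark cycle, the Dbp transcript peaks in the later part of the light phase and the Arntl transcript near the end of the night. All livers here were taken at a single time of day, so each value is a level at that time, and neither phase nor amplitude was measured.

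The table holds 1 FPKM value (fragments scaled to transcript length and to library size) per gene and group, which the authors' Cuffdiff run estimated from 3 libraries together, with a lower and an upper bound. The spread between mice is not visible in it, no test over mice was possible, and the table does not give depth. The interval in brackets after a value runs from the lower to the upper bound. Differences are given on the scale of log2(FPKM + 0.1), which understates the change of low genes. To be eligible for a comparison, a gene needed values above 0 with the status OK in both groups and at least 1 of them over 3 FPKM. It was called higher or lower when, in addition, the log2 difference was over 1.5 in size and the intervals did not overlap. All 60 member values had the status OK. In bulk liver RNA, fewer cells of a type and less RNA per cell cannot be told apart.

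Genes of the other cell types moved between the groups as well. The summed FPKM of 13 skeletal muscle markers came to 1022 under PBS and 1447 under ASNase for WT mice, to 6.05 and 9.23 for Gcn2-/- mice and to 80.2 and 184 for Atf4-/- mice. Pvalb was listed at 0 in both Gcn2-/- groups and Myh4 in Gcn2-/- PBS. The sum of 5 Kupffer cell and macrophage markers was lower under ASNase in each strain, 91.1 against 165 in WT, 57.4 against 106 in Gcn2-/- and 71.9 against 175 in Atf4-/- livers. Their median was lower in WT (12.2 against 19.6) and Atf4-/- livers (13.7 against 19.7) but higher in Gcn2-/- livers (11.8 against 9.39). The sum of 4 lymphocyte markers ranged from 1.58 to 2.14 under PBS and from 0.255 to 0.640 under ASNase, and that of 4 neutrophil markers from 8.17 to 16.1 and from 1.32 to 6.44, with Ly6g listed at 0 in every group but Gcn2-/- PBS and Retnlg in Gcn2-/- ASNase. Sums over 4 genes each ranged from 43.0 to 105.5 for sinusoidal endothelium, from 10.3 to 45.6 for stellate cells and from 2.68 to 4.79 for bile duct. Lung epithelium markers summed to 132 in WT PBS and to at most 2.05 elsewhere, and pancreas markers to 252 in Atf4-/- ASNase and to 4.94 to 44.9 elsewhere. Of these 8 genes, Sftpb was listed at 0 in Gcn2-/- livers and in Atf4-/- PBS, Scgb1a1 in both Atf4-/- groups, Sftpc in Atf4-/- ASNase, and Prss2 and Cpa1 in both Gcn2-/- groups. The 8 hepatocyte markers summed to 9329 in Gcn2-/- ASNase and 7782 in Atf4-/- ASNase, and to between 12767 and 17612 in the other groups, although Alb had no estimate in any group and Serpina1c had one only under ASNase. The part of these shifts in the clock gene values was not tested. Eif2ak4, which encodes GCN2, lay between 2.19 and 3.14 FPKM in all groups, 2.31 and 2.96 in the Gcn2-/- ones. Atf4 was at 32.3 and 29.3 FPKM in the Atf4-/- groups and at 50.4 to 68.1 in the others, and a gene-level value does not show whether the deleted exons carry reads. By the paper's account, its RNA read density plots showed an exon of Gcn2 missing in Gcn2-/- mice and Atf4 missing in Atf4-/- mice.

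The start regions of 4 members are shown for the motifs they hold, since the loops described above act through such elements. RefSeq windows on GRCm38.p6 reach from 250 bases before a transcript start to 50 after it. They were found for 9 of the 10 members, in 14 windows, with none for Per2. They were searched on both strands for the E-box CACGTG, for the D-box, which reads TTA, any base, GTAA, and for the ROR element, which reads AA, any base, T, then A or G, then GGTCA and was added after the values had been seen. The motifs do not contain one another. An E-box stood in the windows of 3 members, Per1, Cry1 and Tef, against 7.15% of all 32851 windows, a D-box in that of 1, Per3, against 2.32%, and a ROR element in that of 1, Arntl, against 0.435%. In both Tef windows the E-box began at -127 or -138, counted from 0 at the start. The counts are of genes, some with several windows, and the shares are of single windows, so they are not like measures. No match means only that these letters are not in the window. Among the 20 further clock genes described below, 13 had a window, 2 of them with an E-box (Bhlhe41, and Ciart with 3 matches), 2 with a D-box (Rorb and Timeless) and 0 with a ROR element. The 4 windows below are given 5′ to 3′ on the strand of the gene, with the motif in capitals: the ROR element of Arntl (chr7:113207261-113207560, plus strand) begins at 27, the E-box of Per1 (chr11:69098699-69098998, plus strand) at -166, that of Cry1 (chr10:85185005-85185304, minus strand) at -60, and the D-boxes of Per3 (chr4:151044616-151044915, minus strand) at -205 and -158.
Arntl: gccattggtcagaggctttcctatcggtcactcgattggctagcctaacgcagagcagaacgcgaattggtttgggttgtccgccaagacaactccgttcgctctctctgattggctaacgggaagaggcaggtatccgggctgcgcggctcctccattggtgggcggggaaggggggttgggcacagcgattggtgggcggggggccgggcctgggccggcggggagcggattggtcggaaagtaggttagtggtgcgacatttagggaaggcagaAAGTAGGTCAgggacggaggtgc
Per1: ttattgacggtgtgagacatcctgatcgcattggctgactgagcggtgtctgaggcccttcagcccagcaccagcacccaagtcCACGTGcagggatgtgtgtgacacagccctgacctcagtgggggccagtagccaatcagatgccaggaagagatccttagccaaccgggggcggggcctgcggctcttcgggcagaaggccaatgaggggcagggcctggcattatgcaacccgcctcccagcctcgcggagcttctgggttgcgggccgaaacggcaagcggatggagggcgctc
Cry1: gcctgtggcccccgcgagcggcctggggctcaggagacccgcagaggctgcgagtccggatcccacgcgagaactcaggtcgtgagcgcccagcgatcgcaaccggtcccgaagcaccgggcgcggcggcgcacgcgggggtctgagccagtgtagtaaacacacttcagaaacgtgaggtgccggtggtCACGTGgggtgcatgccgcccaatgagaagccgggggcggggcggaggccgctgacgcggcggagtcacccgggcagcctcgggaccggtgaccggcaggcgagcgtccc
Per3: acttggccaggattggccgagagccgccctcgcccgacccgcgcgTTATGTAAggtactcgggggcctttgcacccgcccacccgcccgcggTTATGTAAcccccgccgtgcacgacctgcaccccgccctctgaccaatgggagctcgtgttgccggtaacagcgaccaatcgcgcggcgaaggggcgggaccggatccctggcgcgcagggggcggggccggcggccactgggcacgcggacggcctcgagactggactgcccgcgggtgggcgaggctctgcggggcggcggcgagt

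**Figure D1:**
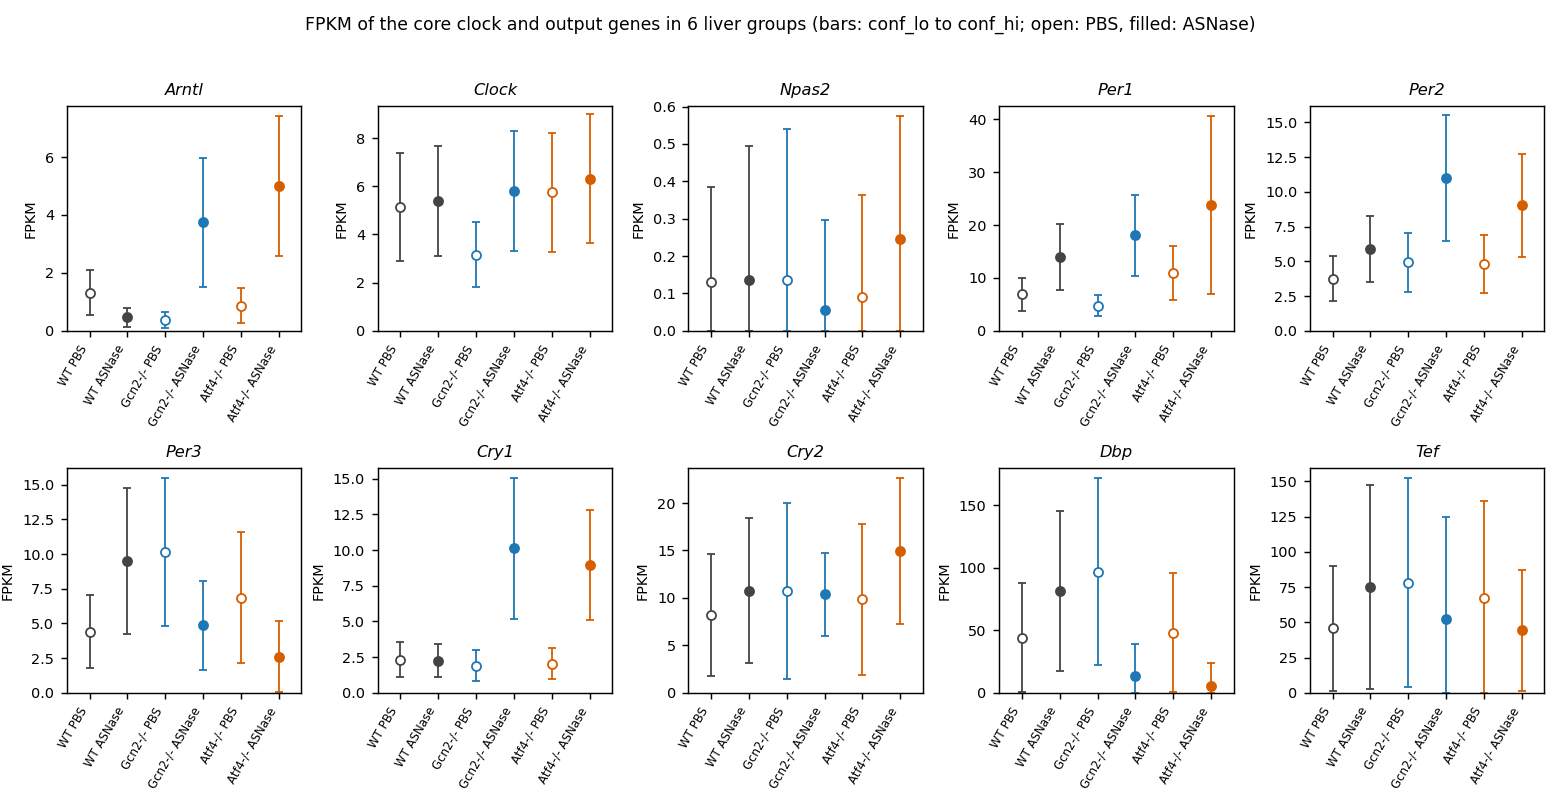
FPKM of the 10 members in the 6 groups, 1 panel per gene with its own axis from 0. Points are the deposited group values (open for PBS, filled for ASNase; grey WT, blue Gcn2-/-, orange Atf4-/-), and bars run from the lower to the upper bound. Arntl and Cry1 stand high in the ASNase-treated Gcn2-/- and Atf4-/- groups, where Dbp has its 2 lowest values, 13.5 and 5.15 FPKM.

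Arntl, the indispensable activator of the loop (ENSMUSG00000055116, chr7:113207465-113314126, plus strand), rose after ASNase in both knockout strains. Under PBS it was at 1.31 FPKM (0.531 to 2.098) in WT, 0.367 (0.0840 to 0.650) in Gcn2-/- and 0.865 (0.251 to 1.48) in Atf4-/- livers. Under ASNase it was at 0.462 (0.124 to 0.800) in WT, 3.75 (1.52 to 5.98) in Gcn2-/- and 4.998 (2.59 to 7.41) in Atf4-/- livers. The lowest and highest group values were 13.6-fold apart, the widest range but one among the members. The ASNase value was 10.2-fold the PBS value in Gcn2-/- livers and 5.78-fold in Atf4-/- livers, log2 differences of 3.04 and 2.40 with separate intervals. In WT livers the log2 difference was -1.33, the intervals overlapped, and neither value passed the 3 FPKM limit. Ordered by level, Gcn2-/- PBS came first, followed by WT ASNase, Atf4-/- PBS, WT PBS, Gcn2-/- ASNase and Atf4-/- ASNase, and the intervals of every neighbouring pair overlapped. Exons of Arntl overlap an antisense gene, Gm45355, and the library kit does not mark strand, so reads from the pair cannot be told apart.

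Clock, which encodes the partner of ARNTL and a histone acetyltransferase (ENSMUSG00000029238, chr5:76209868-76304792, minus strand), had a narrower range than Arntl and was called in no comparison. It lay between 5.15 and 6.31 FPKM in 5 groups and at 3.16 (1.83 to 4.50) in Gcn2-/- PBS, and the highest value was 1.995-fold the lowest. As for Arntl, the lowest value was that of Gcn2-/- PBS and the highest that of Atf4-/- ASNase. Its ASNase minus PBS differences were 0.06 in WT, 0.86 in Gcn2-/- and 0.13 in Atf4-/- livers on the log2 scale, none with separate intervals. Npas2, a paralogue of Clock that can stand in for it (ENSMUSG00000026077, chr1:39193731-39363236, plus strand), was barely detected. Its values were 0.0546 to 0.246 FPKM, every lower bound was 0, and no upper bound was above 0.574, so it was eligible in no comparison.

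Per1 and Per2, whose proteins form the repressive complex with the cryptochromes, had higher values under ASNase than under PBS in all strains, and the difference was called for Per1 in Gcn2-/- livers. Per1 (ENSMUSG00000020893, chr11:69095217-69109960, plus strand) stood at 6.86 FPKM (3.79 to 9.94) in WT PBS, 4.77 (2.70 to 6.84) in Gcn2-/- PBS and 10.9 (5.81 to 15.9) in Atf4-/- PBS. Under ASNase it stood at 13.9 (7.76 to 20.1), 18.1 (10.4 to 25.7) and 23.8 (6.95 to 40.7). The 3.79-fold difference in Gcn2-/- livers, 1.90 on the log2 scale, had separate intervals, while those in WT (1.01) and Atf4-/- livers (1.12) did not. The Gcn2-/- PBS group held the lowest Per1 value of the 6. Per2 (ENSMUSG00000055866, chr1:91415982-91459324, minus strand) was at 3.74 (2.12 to 5.35), 4.92 (2.82 to 7.03) and 4.79 FPKM (2.69 to 6.90) under PBS in WT, Gcn2-/- and Atf4-/- livers. Under ASNase it was at 5.88 (3.48 to 8.29), 11.0 (6.45 to 15.5) and 9.02 (5.33 to 12.7). The log2 differences were 0.64, 1.14 and 0.90, with overlapping intervals in each strain.

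Per3, a paralogue that is dispensable for the core rhythm (ENSMUSG00000028957, chr4:151003652-151044665, minus strand), differed from Per1 and Per2 in the knockout strains. It was at 4.41 FPKM (1.79 to 7.03) in WT PBS and 9.49 (4.204 to 14.8) in WT ASNase. In Gcn2-/- livers it was at 10.1 (4.83 to 15.5) under PBS and 4.86 (1.67 to 8.06) under ASNase. In Atf4-/- livers it was at 6.87 (2.13 to 11.6) and 2.61 (0.0398 to 5.17). The ASNase minus PBS values were thus 1.09 in WT, -1.05 in Gcn2-/- and -1.36 in Atf4-/- livers on the log2 scale, and the intervals overlapped in all 3. The locus of Per3 in the table spans 947.3 kb and so reaches beyond the annotated gene, and its FPKM may include reads from outside Per3.

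Cry1, the stronger repressor of the cryptochrome pair (ENSMUSG00000020038, chr10:85131700-85185064, minus strand), rose after ASNase in both knockout strains, as Arntl did. It was at 2.33 FPKM (1.13 to 3.54) in WT PBS, 2.24 (1.08 to 3.39) in WT ASNase, 1.90 (0.818 to 2.99) in Gcn2-/- PBS and 2.05 (0.954 to 3.14) in Atf4-/- PBS. Against these it reached 10.1 (5.20 to 15.0) in Gcn2-/- ASNase and 8.96 (5.12 to 12.8) in Atf4-/- ASNase. These values were 5.32-fold and 4.38-fold those of the PBS groups, or 2.35 and 2.08 on the log2 scale. In WT livers the difference was -0.06. The intervals of the 2 high groups lay wholly above those of the 4 low ones, whose intervals overlapped one another. Cry2 (ENSMUSG00000068742, chr2:92403646-92434043, minus strand), the other cryptochrome, lay between 8.24 and 15.0 FPKM, with log2 differences of 0.38, -0.05 and 0.60 in WT, Gcn2-/- and Atf4-/- livers and all intervals overlapping. The ratio of Cry1 to Cry2 FPKM was 0.177 to 0.283 in the PBS groups and WT ASNase, 0.976 in Gcn2-/- ASNase and 0.599 in Atf4-/- ASNase. Cry2 shares exon sequence with D930015M05Rik, which was at 0.680 to 1.37 FPKM.

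Dbp, the PAR bZIP factor with the widest daily swing of the family in liver (ENSMUSG00000059824, chr7:45705088-45710203, plus strand), had the widest range of the members, 18.8-fold. Under PBS it was at 44.1 FPKM (0.614 to 87.6) in WT, 96.8 (22.2 to 171) in Gcn2-/- and 48.1 (0.627 to 95.6) in Atf4-/- livers. Under ASNase it was at 81.2 (17.4 to 145) in WT, 13.5 (0 to 39.0) in Gcn2-/- and 5.15 (0 to 23.7) in Atf4-/- livers. The PBS value was 7.19-fold and 9.35-fold the ASNase value in the knockout strains, log2 differences of -2.84 and -3.20, and 0.88 in WT. None was called, because the intervals of Dbp were among the widest of the members, with half-widths of 77.1% to 360% of the value, and overlapped in each comparison. The locus of Dbp in the table spans 15.7 kb and so reaches beyond the annotated gene, and its FPKM may include reads from outside Dbp. Dbp also shares exon sequence with Sphk2 on the opposite strand. Sphk2, named after its values were seen, was at 17.5, 20.3 and 12.7 FPKM under PBS and 16.6, 10.6 and 10.7 under ASNase in WT, Gcn2-/- and Atf4-/- livers, so the reads of the pair cannot be told apart. Tef (ENSMUSG00000022389, chr15:81802421-81826863, plus strand) ranged from 44.3 FPKM in Atf4-/- ASNase to 78.2 in Gcn2-/- PBS, a 1.77-fold range. Its ASNase minus PBS values were 0.71 in WT, -0.58 in Gcn2-/- and -0.60 in Atf4-/- livers, with half-widths of 94.6% to 139%, and its exons overlap the antisense gene Gm17597.

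Across the members, ASNase was called in 0 of 10 genes in WT livers, where 0.881% of 9084 eligible genes were called. In Gcn2-/- livers Arntl, Per1 and Cry1 were called higher and 0 lower, against 3.69% of 9218 eligible genes called in either direction and 1.56% called higher. In Atf4-/- livers Arntl and Cry1 were called higher and 0 lower, against 7.37% of 9485 in either direction and 2.74% higher. Members eligible were 7 in WT and 9 in each knockout strain. Arntl and Cry1 passed the 3 FPKM limit only through the ASNase-treated knockout groups in which they were high, so their eligibility and their call are not separate facts. Whether a response differed between the strains was not tested. Without the fold limit the same members had separate intervals, beside 1.01%, 4.24% and 8.03% of eligible genes in WT, Gcn2-/- and Atf4-/- livers. Set out by role, the median log2 difference over the 5 Per and Cry genes was 0.64, 1.14 and 0.90 in WT, Gcn2-/- and Atf4-/- livers, and that over the 2 outputs was 0.80, -1.71 and -1.90. Over the 3 activators it was 0.03, 0.86 and 0.86, but in WT and Atf4-/- livers this is the value of the barely detected Npas2, and with a pseudocount of 1 the Atf4-/- median was 0.19. In Gcn2-/- and Atf4-/- livers the output medians lie midway between 2 unlike genes, neither of them called. Dbp was at -2.84 and -3.20 and Tef at -0.58 and -0.60. Over all eligible genes the medians were -0.01, 0.02 and 0.08.

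**Figure D2:**
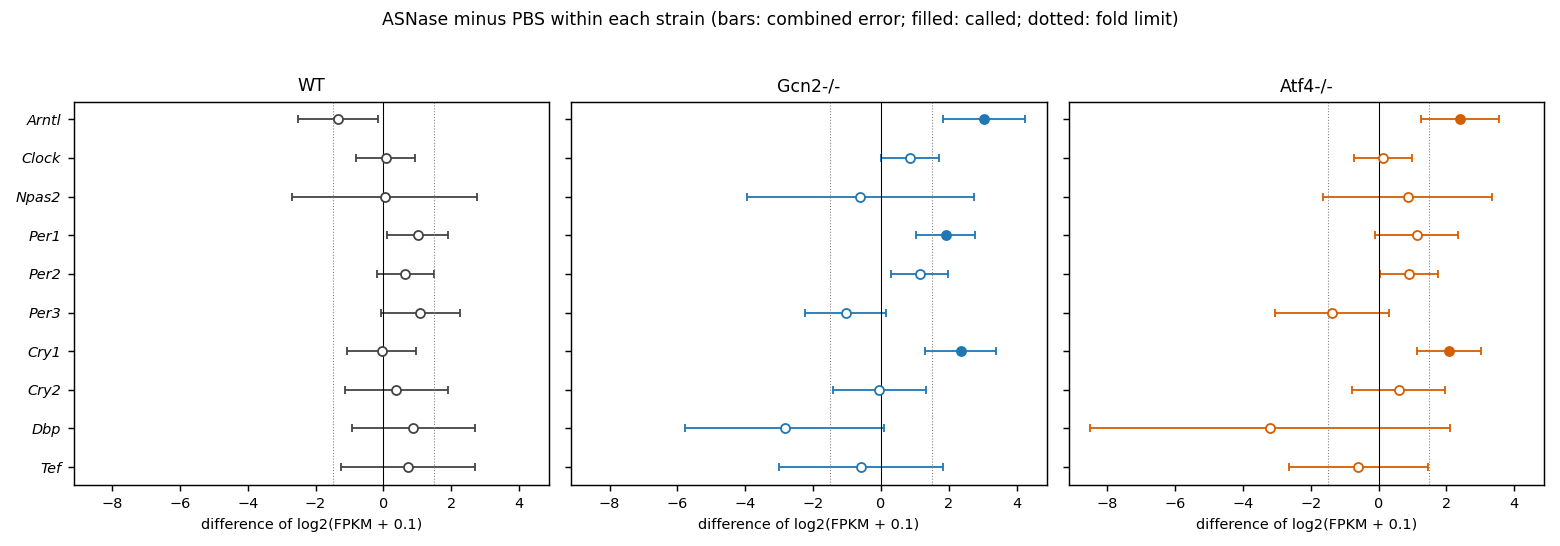
ASNase minus PBS difference of log2(FPKM + 0.1) for the 10 members in each strain. Bars are the combined error of both group intervals on the log2 scale, filled points are called, and dotted lines mark the 1.5 limit. Arntl and Cry1 are filled in both knockout strains (3.04 and 2.35 in Gcn2-/-, 2.40 and 2.08 in Atf4-/-) and open in WT, and Dbp has long bars.

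Comparing strains under PBS asked whether loss of Gcn2 or Atf4 alone moved the clock genes. In each of these comparisons 7 members were eligible, and Arntl, Npas2 and Cry1 could not be called. For Gcn2-/- against WT 0 members were called, beside 1.04% of 8920 eligible genes. Likewise 0 were called for Atf4-/- against WT, beside 1.12% of 9039, and for Atf4-/- against Gcn2-/-, beside 0.976% of 9015. With shares this low, 0 calls among 7 genes does not show that the members were unmoved. No member had separate intervals either, beside 1.2%, 1.28% and 1.25% of eligible genes. The differences of Gcn2-/- from WT reached -1.60 for Arntl, which was not eligible, 1.18 for Per3 and 1.13 for Dbp on the log2 scale. Those of Atf4-/- from WT were 0.66 for Per1, 0.63 for Per3, 0.55 for Tef and -0.55 for Arntl, and the other 6 lay closer to 0.

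Under ASNase the strains stood apart at Arntl and Cry1. Arntl was 8.11-fold the WT value in Gcn2-/- and 10.8-fold in Atf4-/- livers, and Cry1 was 4.52-fold and 4.00-fold, all with separate intervals. These 2 members were called higher in each comparison and 0 lower, beside 4.41% of 9423 eligible genes (1.83% higher) for Gcn2-/- and 8.25% of 9577 (2.59% higher) for Atf4-/-. Separate intervals of any fold stood at 4.87% and 9.01% of genes. Dbp differed from WT by -2.58 in Gcn2-/- and -3.95 in Atf4-/- livers and Per3 by -0.95 and -1.82 on the log2 scale, with overlapping intervals. Between the 2 knockout strains 0 of the 9 eligible members were called under ASNase, beside 3.19% of 9355 genes called and 3.61% with separate intervals. With a share this low and intervals this wide, 0 calls does not show that the strains were alike. The differences of Atf4-/- from Gcn2-/- were 0.41 for Arntl, -0.17 for Cry1, -0.87 for Per3 and -1.37 for Dbp. All of these comparisons share groups with those of ASNase against PBS, and the values are given side by side for that reason.

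The 6 group values of Arntl and Dbp fell in opposite order, but the intervals of Dbp overlapped in every comparison. The ratios given here are of single group values and carry no interval. The ratio of Dbp to Arntl FPKM was 33.5, 264 and 55.7 under PBS in WT, Gcn2-/- and Atf4-/- livers, and 176, 3.59 and 1.03 under ASNase. Over the 6 group values, log2 levels of the 2 genes had a Pearson correlation of -0.97, those of Dbp and Per3 of 0.91, and those of Arntl and Cry1 of 0.93. These are descriptions of 6 points that share libraries and scaling, and the 2 ASNase-treated knockout groups set most of their range. Per3 ranked 894 of 10172 genes in likeness to Dbp, and Cry1 ranked 201 in likeness to Arntl. Many genes outside the members were thus as close or closer. Among 10172 genes, those most like Arntl included Nr2c2ap, Fam98b, Pdlim1 and Nub1 (r from 0.988 to 0.996), and those most like Dbp were Nfib, Mob3b, Snora20, Slc16a7 and Rnf19b (0.991 to 0.993).

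**Figure D3:**
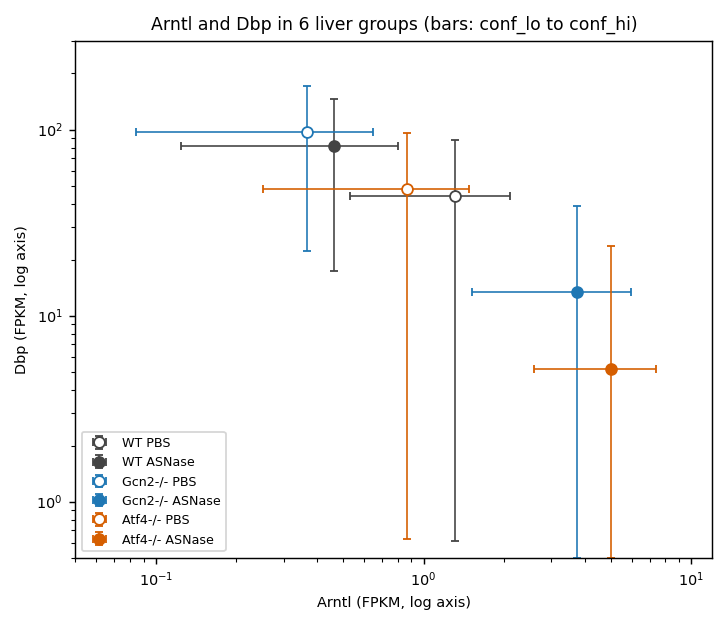
Arntl against Dbp FPKM in the 6 groups, both axes logarithmic, with bars from the lower to the upper bound. Bars that run off the lower edge have a lower bound of 0. The ASNase-treated Gcn2-/- and Atf4-/- points sit at the lower right, with ratios of Dbp to Arntl of 3.59 and 1.03, and the other 4 at the upper left.

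A list of 20 other clock genes was read the same way. In WT livers 0 of the 14 eligible were called after ASNase. In Gcn2-/- livers 15 were eligible, and Nfil3 was called higher and Nr1d1 lower. In Atf4-/- livers 0 of 14 were called. Over all eligible genes the shares called in these comparisons were 0.881%, 3.69% and 7.37%. Nfil3, a repressor that competes with the PAR bZIP factors for D-boxes, was at 7.73, 7.11 and 10.03 FPKM under PBS and at 5.73, 25.7 and 26.5 under ASNase in WT, Gcn2-/- and Atf4-/- livers. Its intervals were separate in both knockout strains, at 1.84 in Gcn2-/- and, under the 1.5 limit, 1.39 in Atf4-/- livers. Nr1d1, the nuclear receptor that represses Arntl, was at 33.3, 46.6 and 37.8 under PBS and 38.1, 9.33 and 13.6 under ASNase, with log2 differences of 0.19, -2.31 and -1.47. Nr1d2, its paralogue, had differences of 0.72, -1.24 and -0.33, with overlapping intervals in each strain.

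Between strains under ASNase, 15 genes of the list were eligible for each knockout strain against WT. Gcn2-/- livers had Nfil3 called higher and Nr1d1 and Wee1 lower than WT, beside 4.41% of all eligible genes. Atf4-/- livers had Nfil3 called higher and Wee1 lower, beside 8.25%. Wee1, a cell cycle kinase driven by E-boxes, was at 4.59 FPKM in WT, 1.39 in Gcn2-/- and 1.24 in Atf4-/- livers under ASNase. Under PBS it was at 1.98, 4.29 and 2.87, and WT held the lowest value. In both calls Wee1 passed the 3 FPKM limit only through WT ASNase. For Gcn2-/- its intervals were barely separate, with a lower bound of 2.329 in WT and an upper bound of 2.315 in Gcn2-/- livers. With a pseudocount of 1 neither Wee1 call remained. Between Atf4-/- and Gcn2-/- livers 0 of 15 eligible were called under PBS and 0 of 14 under ASNase, beside 0.976% and 3.19% of eligible genes. Against WT under PBS 0 of 15 were called for Gcn2-/- and 0 of 14 for Atf4-/-, beside 1.04% and 1.12%. With shares this low, 0 calls in a list of this size says little. Rora, a receptor that activates Arntl, was at 6.06 to 14.7 FPKM. Hlf, another PAR bZIP factor, ranged from 6.96 to 18.7 FPKM, Bhlhe40 from 36.6 to 76.1 and Bhlhe41, like it an E-box repressor, from 0.617 to 2.27. Ciart, listed under its older symbol Gm129 and an inhibitor of the ARNTL complex, was at 9.27 FPKM in WT PBS and 28.1 in WT ASNase, and at 11.2 to 17.5 elsewhere. Rorb was listed at 0 in 5 groups.

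**Figure D4:**
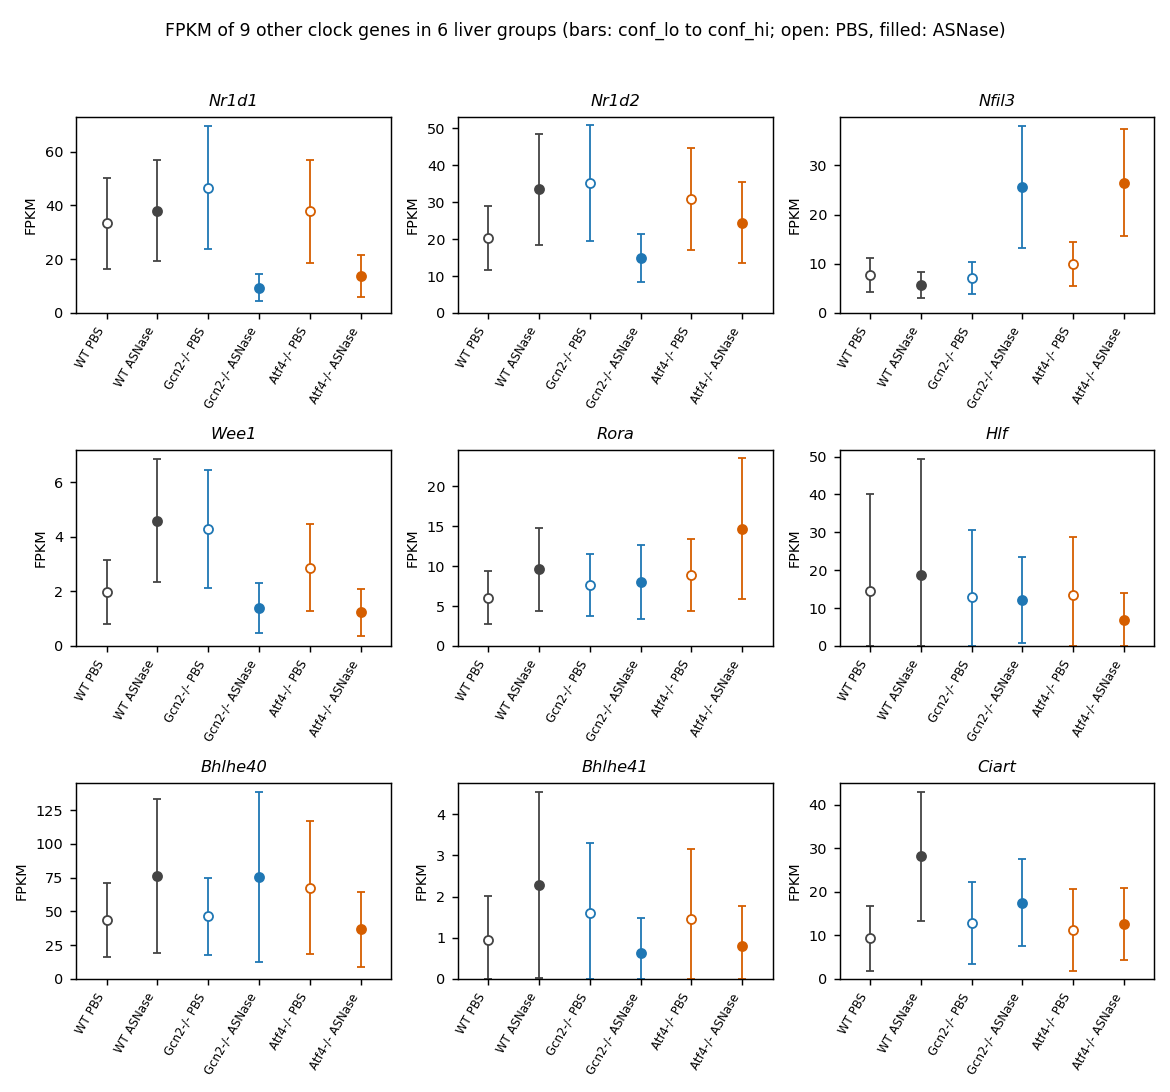
FPKM of 9 other clock genes in the 6 groups, 1 panel per gene with an axis from 0. Symbols and bars are as for the members. Nfil3 stands at 25.7 and 26.5 FPKM and Nr1d1 at 9.33 and 13.6 in the ASNase-treated Gcn2-/- and Atf4-/- groups.

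Of the 9 genes listed as targets of the PAR bZIP factors, 0 were called after ASNase in WT livers, Cyp2a4 and Ces2a were called lower in Gcn2-/-, and Ces2a was called lower and Cyp2b10 higher in Atf4-/- livers, beside 0.881%, 3.69% and 7.37% of all eligible genes. Cyp2a4 was at 756 FPKM under PBS and 97.7 under ASNase in Gcn2-/- livers, and at 184 and 18.2 in Atf4-/- livers, where the log2 difference of -3.33 was not called because the intervals overlapped. Ces2a, a carboxylesterase, was at 256, 188 and 196 FPKM under PBS and at 244, 46.2 and 45.6 under ASNase in WT, Gcn2-/- and Atf4-/- livers. Cyp2a5, a cytochrome P450 of coumarin metabolism, was at 842, 973 and 801 under PBS and 1365, 231 and 113 under ASNase, with overlapping intervals, as for Dbp. Alas1, Cyp7a1 and Ppara were also lower under ASNase in both knockout strains, with overlapping intervals. Other listed genes were not. Por was at 199 and 280 FPKM under PBS and at 239 and 363 under ASNase in Gcn2-/- and Atf4-/- livers, with overlapping intervals. Cyp2b10 was higher under ASNase in both, and Nr1i3 was higher in Gcn2-/- and lower in Atf4-/- livers. Cyp2a4 and Cyp2a5 are near-identical copies, so their split is uncertain. Between strains, Ces2a was called lower than WT in both knockouts under ASNase, beside 4.41% of eligible genes for Gcn2-/- and 8.25% for Atf4-/-. Cyp2b10 was called lower in Atf4-/- than in WT and in Gcn2-/- livers under PBS, beside 1.12% and 0.976%. It was at 15.3, 14.4 and 2.63 FPKM under PBS in WT, Gcn2-/- and Atf4-/- livers, and at 49.1 in Atf4-/- ASNase. In each of its calls it passed the 3 FPKM limit only through the group in which it was higher. Cyp2a4 was called lower in Atf4-/- than in Gcn2-/- livers under ASNase, beside 3.19%.

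A list of 7 glucocorticoid-responsive genes was described because the hormone also drives Per1. After ASNase, Mt1 and Mt2 were called higher in WT, Zbtb16 and Mt2 in both knockout strains, and Tsc22d3 was called lower in Atf4-/- livers. Over all eligible genes the shares called were 0.881%, 3.69% and 7.37% in WT, Gcn2-/- and Atf4-/- livers. Fkbp5, Sgk1 and Tat were not called, and each was higher under ASNase than under PBS in every strain. Mt1 was at 100.4, 923 and 1063 FPKM under PBS and 798, 6287 and 7118 under ASNase in WT, Gcn2-/- and Atf4-/- livers. Its log2 differences were 2.99, 2.77 and 2.74, and those in the knockout strains were not called because the intervals overlapped. Zbtb16, a transcription factor induced by glucocorticoids, was at 2.31, 1.299 and 2.31 FPKM under PBS in WT, Gcn2-/- and Atf4-/- livers. Under ASNase it was at 3.34, 8.12 and 9.60. In the knockout strains it passed the 3 FPKM limit only through the ASNase groups, in which it was high. Tsc22d3 (GILZ) was at 85.5, 33.3 and 84.7 under PBS and at 95.6, 61.5 and 17.3 under ASNase. Mt1 and Mt2, which metals also induce, were called higher in both knockouts than in WT under PBS. The shares of eligible genes called there were 1.04% for Gcn2-/- and 1.12% for Atf4-/-. Under ASNase Mt2 was called higher in both knockouts than in WT, beside 4.41% of eligible genes for Gcn2-/- and 8.25% for Atf4-/-. Tsc22d3 was called lower in Atf4-/- than in WT livers, beside that 8.25%, and than in Gcn2-/- livers, beside 3.19%. The part of the hormone in the clock gene values was not tested.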

How the data were processed

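Liver poly-A RNA of 18 mice was sequenced by the authors as single-end reads from unstranded libraries and, by their notes, aligned to mm10 with TopHat and quantified with Cuffdiff. The deposited FPKM values, with their lower and upper bounds and a status, are 1 per gene and group, pooled over 3 libraries, and the names of the 24 value columns gave their groups. Single libraries and counts were not used here. The half-width of the interval was 51.3% to 54.2% of the value (median by group over genes above 3 FPKM). Values were compared in 9 pairs of groups on log2(FPKM + 0.1) in Python 3.11.15 with pandas 2.3.3, with the call rule stated above. The alternatives were a pseudocount of 1, no FPKM limit, a log2 limit of 1, a combined interval and median-ratio scaling. The combined interval set the FPKM difference against both half-widths, added as squares, on the FPKM scale. It differs from the combined error on the log2 scale, and they can disagree. For Dbp in Gcn2-/- livers after ASNase, -2.84 lay within its combined error of 2.93 but passed the combined interval. Named genes were the 10 members, fixed clock, D-box and glucocorticoid lists, cell type markers, and the 5 genes most like Dbp and Arntl, and values of 2 genes under this rule are not reported here. The members and lists were chosen with earlier results of these data known. Gene positions come from the GENCODE M21 annotation of GRCm38, promoter windows from RefSeq.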

Additional observations from a re-analysis of the deposited data

Results flagged for a closer look

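For 4 members the ASNase response in a knockout strain lay far from that in WT livers. The difference of the 2 log2 changes was over 1.5 and larger than the combined error of its 4 values, a criterion chosen after the data had been seen. With 1 value per group the difference between strains was not tested. For Arntl the Gcn2-/- change exceeded the WT change by 4.37 (combined error 1.69) and the Atf4-/- change did so by 3.73 (1.64). Both rest on a WT change between values under 3 FPKM, and with a pseudocount of 1 they were 2.46 and 2.35. For Cry1 the corresponding differences were 2.41 (1.45) and 2.13 (1.39). For Per3, the differences from the WT change were -2.13 (1.66) in Gcn2-/- and -2.45 (2.04) in Atf4-/- livers, although no single change of Per3 had separate intervals and its FPKM may include reads from outside the gene. For Dbp the Gcn2-/- change differed from that in WT by -3.72 (3.45), while the Atf4-/- difference of -4.08 did not exceed its error of 5.596. The FPKM of Dbp, too, may include reads from outside the gene. Outside the members, the same criterion was met by Nfil3 (2.26 and 1.82 for Gcn2-/- and Atf4-/-), Wee1 (-2.73 and -2.32), Nr1d1 (-2.50 and -1.66) and, in Gcn2-/- livers, Nr1d2 (-1.96). Changes of opposite sign with separate intervals in both strains, the criterion first set, were found for no member.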

How the results depend on the processing

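No paired analysis was possible because the table holds 1 value per group, and leaving out a replicate was not run for the same reason. Calls of members kept within 1.5 times their number in 44 of 45 cases, but many of these cases set 0 calls against 0. Dropping the FPKM limit or lowering the log2 limit can only add calls, so this count says little about stability. With a combined interval in place of separate ones, 4 members were called for Atf4-/- against WT under ASNase, Per3 and Dbp being lower beside Arntl and Cry1, and Dbp joined the calls for ASNase in Gcn2-/- livers. Without a fold limit the combined interval was passed by 1 member in WT after ASNase (Per1), 5 in Gcn2-/- after ASNase (Arntl, Per1, Per2, Cry1 and Dbp), 4 for Atf4-/- against WT under ASNase and 1 for Atf4-/- against Gcn2-/- under PBS (Per1). In the list of other clock genes, the count became 1 in WT after ASNase with the combined interval. It became 1 in Atf4-/- after ASNase without the FPKM limit or with a log2 limit of 1. With a pseudocount of 1 it fell to 1 for Atf4-/- against WT under ASNase, Wee1 being lost. For Gcn2-/- against WT under ASNase it fell to 2 with that pseudocount or with median-ratio scaling, again without Wee1. A pseudocount of 1 lowered the Arntl difference to 1.80 in Gcn2-/- after ASNase and to 2.04 for Atf4-/- against WT under ASNase, as it must for values near or under 1, and kept 2 of the 5 names most like Dbp and 3 of those most like Arntl. The 7 member differences between strains given above still met their criterion with a pseudocount of 1, tried after the data had been seen. Under that pseudocount or median-ratio scaling, 0 of 90 member differences changed sign. What depth limits cannot be read from the table, and overlapping intervals kept Dbp from being called.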
